A study of Mus musculus with 15 samples.

Results

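The doublecortin family comprises 4 genes in the mouse, Dcx, Dclk1, Dclk2 and Dclk3, and its transcripts were followed in the CA3 field of the newborn hippocampus with and without Dcx. Every probe whose gene symbol was one of these 4 names was taken, either from the symbol in brackets at the end of the probe's definition or from the platform annotation. This gave 6 of the 25697 probes on the array, all 6 named by both sources. Dcx had 3 probes (ILMN_1228206, ILMN_2931623 and ILMN_1256251, called probes 1, 2 and 3 in this order). Dclk1 (ILMN_1217517), Dclk2 (ILMN_2990152) and Dclk3 (ILMN_1245352) had 1 probe each.

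Tissue was taken by laser microdissection from mice at postnatal day 0. Wild-type (WT) mice gave 5 samples of CA3, and 5 Dcx knockout (KO) animals gave 1 sample of the inner and 1 of the outer part of CA3 each, so that 15 arrays stand for 10 animals. The labels call the KO animals mutant for doublecortin and give no sex, strain or allele. The material of each brain was pooled before RNA isolation, and the RNA was amplified from its poly(A) end and hybridised to Illumina bead arrays.

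Proteins with doublecortin domains bind along the microtubule lattice between protofilaments, and they stabilise, nucleate and help bundle microtubules. Doublecortin itself is abundant in migrating and newly differentiating neurons, and its loss disturbs the layering of hippocampal pyramidal cells in the mouse. Dclk1 and Dclk2 encode proteins that join paired doublecortin domains to a serine/threonine kinase domain, and combined loss of Dcx with either relative is known to worsen forebrain defects in the mouse. Dclk3 encodes the most divergent relative of the group, a kinase.

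In the mouse assembly GRCm38.p6 of RefSeq, Dcx lies on chromosome X (143855842 to 143933396), Dclk1 (55242303 to 55539068) and Dclk2 (86786150 to 86920952) on chromosome 3, and Dclk3 on chromosome 9 (111439081 to 111489611). RefSeq lists 4 curated mRNAs for Dcx, 12 for Dclk1, 7 for Dclk2 and 1 for Dclk3. The sources used here do not place the probes on transcripts, and a probe's signal cannot be assigned to one of these mRNAs. The following stretches of 100 bases are shown because Dcx and Dclk1 each have more than 1 start in the RefSeq promoter table, and the arrays do not part the transcripts that begin at them. They come from RefSeq on GRCm38.p6 and run 5′ to 3′ on the strand of the gene, with the 50 bases before the annotated start in lower case and the 50 bases from the start on in capitals.
Dcx, start 1 of 2, minus strand, chrX:143933075-143933174: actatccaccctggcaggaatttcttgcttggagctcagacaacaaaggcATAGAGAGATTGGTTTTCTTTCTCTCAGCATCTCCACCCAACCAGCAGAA
Dcx, start 2 of 2, minus strand, chrX:143933170-143933269: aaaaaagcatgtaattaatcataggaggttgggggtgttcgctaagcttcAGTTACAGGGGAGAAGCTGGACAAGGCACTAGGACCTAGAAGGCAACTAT
Dclk1, start 1 of 2, plus strand, chr3:55242314-55242413: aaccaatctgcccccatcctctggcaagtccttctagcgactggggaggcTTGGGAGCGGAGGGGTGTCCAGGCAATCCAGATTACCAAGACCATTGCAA
Dclk1, start 2 of 2, plus strand, chr3:55461678-55461777: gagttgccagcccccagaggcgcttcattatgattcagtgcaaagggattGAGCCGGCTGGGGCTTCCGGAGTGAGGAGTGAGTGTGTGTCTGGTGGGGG
Dclk2, minus strand, chr3:86920835-86920934: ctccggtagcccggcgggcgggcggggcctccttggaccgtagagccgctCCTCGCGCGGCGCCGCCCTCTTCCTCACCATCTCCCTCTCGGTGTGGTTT
The 2 Dcx starts lie 95 bases apart, and the 2 Dclk1 starts lie 219364 bases apart within the gene. In the mouse, the shorter Dclk1 transcripts that begin inside the gene encode the kinase domain without the doublecortin domains. Over the windows of 250 bases before to 50 after the start, those of Dcx held 44.7% and 43.0% G and C with 3 CpG each, and those of Dclk1 held 52.7% and 50.3% with 5 and 6 CpG. The Dclk2 window held 61.3% with 27 CpG. Across all 32851 windows of the table the median was 52.7% and 7 CpG, so that Dcx lay below and Dclk2 above the median in both measures. This is a description of the sequence only.

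Between 10718 and 12072 probes were detected per array, where detected means a detection p-value under 0.01 against 1114 negative controls, and 12077 probes detected on at least 5 arrays were tested. Of the CA3 markers 5 of 7 were detected, with a mean log2 level of 8.35 to 8.66 over all arrays. Among them Neurod6 was detected on 8 arrays, with levels of 4.40 to 5.51. Calb1, Dsp and C1ql2, 3 of 4 dentate granule markers, were not detected. The remaining dentate marker, Prox1, was detected on 12 arrays, with levels of 4.54 to 5.57. The 8 arrays of KO animals 1 to 4 carry a shift in the authors' scores that the arrays of KO animal 5 and of WT lack. The shift differs by probe and by layer and is not 1 offset for a whole array. Its largest size over all probes was 1.12 array SD on the 4 inner and 2.29 on the 4 outer arrays. No label names a batch, and what the shift stands for is not stated. The arrays are called shifted and unshifted sets here, and since no WT array is shifted, this split and the genotype can be told apart only through KO animal 5. Skeletal muscle markers, 8 of 9 detected, stood at 7.69 to 10.87 on 6 arrays (inner 1, 2 and 5, WT 1, 2 and 3) and at 5.03 to 5.80 on the other 9. In all comparisons a lower signal can come from fewer cells of a type or from less RNA per cell, and these cannot be told apart in dissected tissue.

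Dcx transcript was lower in both KO layers than in WT and did not differ detectably between the layers. Dclk3 took another course: in the KO it was higher in the inner than in the outer layer in all 5 animals, with WT in between. Dclk1 lay slightly lower in the KO without passing the test, and Dclk2 passed it in no comparison. On the normalized log2 scale, 5 of the 6 probes were detected on 15 of 15 arrays. Dcx probe 3 was detected on none, with levels of 4.20 to 4.81 and detection p-values of 0.0466 to 0.863, and was left out of the tests.

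**Figure D1:**
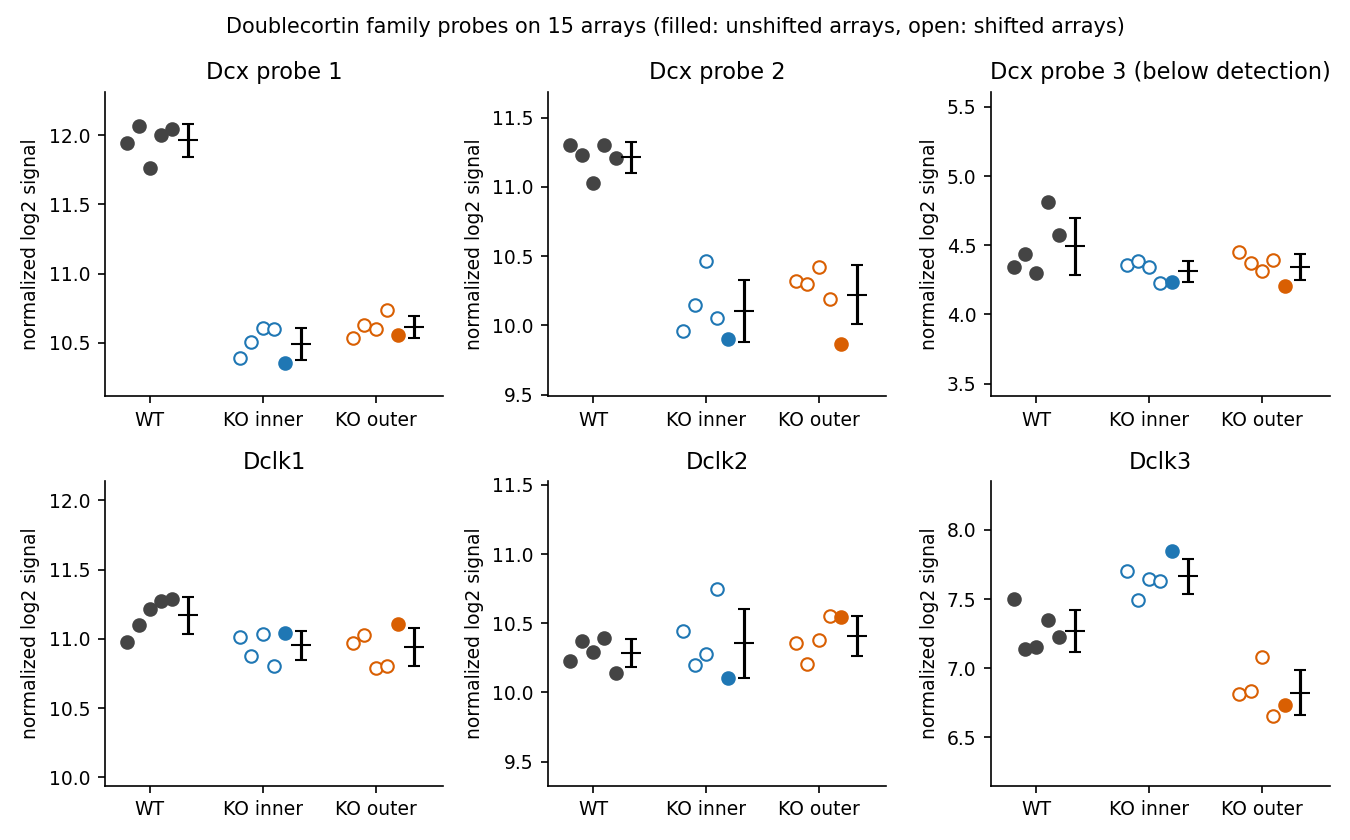
Normalized log2 signal (vertical axis, each panel spanning the same range) of the 6 doublecortin family probes on 15 arrays, by group, with the mean and SD beside each group of 5. Filled points are unshifted and open points shifted arrays; both detected Dcx probes fall in the KO, and Dclk3 alone separates the KO layers.

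The targeted gene was examined first. Dcx probe 1 stood at 11.94, 12.07, 11.76, 12.00 and 12.04 in WT animals 1 to 5. In KO animals 1 to 5 it stood at 10.39, 10.51, 10.61, 10.60 and 10.36 in the inner layer. In the outer layer of the same animals it stood at 10.54, 10.63, 10.60, 10.74 and 10.56. Every KO array was below every WT array, and the KO layers overlapped. The mean over both layers of an animal was 10.55 ± 0.09 (SD, n = 5) in the KO against 11.96 ± 0.12 (SD, n = 5) in WT. The log2 difference was −1.41 (95% interval −1.60 to −1.23), a 2.66-fold lower signal that left 37.6% of the WT level (limma, adjusted p = 3.49e-05 over all 12077 probes). It ranked 1 by p among all probes.

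Probe 2 of Dcx showed the same order with a smaller difference. It stood at 11.30, 11.23, 11.03, 11.30 and 11.21 in WT animals 1 to 5. The inner layer of KO animals 1 to 5 had 9.96, 10.15, 10.47, 10.05 and 9.90. The outer layer had 10.32, 10.30, 10.42, 10.19 and 9.87. The lowest WT array was again above the highest KO array. The log2 difference between KO animals and WT was −1.05 (95% interval −1.29 to −0.82), a 2.07-fold lower signal at 48.3% of WT (limma, adjusted p = 0.00323), ranking 3 among all probes.

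Both KO layers took part in the loss of Dcx signal. Against WT, probe 1 fell by 1.47 on the log2 scale in the inner and by 1.35 in the outer layer (limma, adjusted p of 5.36e-05 and 6.72e-05). Probe 2 fell by 1.11 in the inner and by 0.99 in the outer layer (adjusted p of 0.00073 and 0.0071). Between the layers, probe 1 was 0.12 higher in the outer one (95% interval −0.04 to 0.28, adjusted p = 0.264, higher in 4 of 5 animals), and probe 2 was 0.11 higher (−0.08 to 0.31, adjusted p = 0.371, 3 of 5 animals). The intervals allow a layer difference of at most 1.22-fold for probe 1 and 1.24-fold for probe 2 in that direction. Both probes remained detected on all 10 KO arrays. The sources used here do not say which part of Dcx is deleted or whether a probe lies within it, so that residual signal says nothing about residual protein.

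The Dcx difference was as large within the unshifted set, which holds WT. With the array set as a term, an estimate that rests on KO animal 5 for the KO, only 2 of the 12077 probes were called between KO animals and WT at an adjusted p under 0.05, and both were Dcx probes 1 and 2, at −1.51 ± 0.14 (SE, limma, adjusted p = 0.00795) and −1.33 ± 0.16 (SE, adjusted p = 0.0323). In the inner layer 10 probes were called with this term and in the outer layer 3, and the same 2 Dcx probes were among them each time. In KO animal 5 alone against the 5 WT animals, the differences were the same −1.51 and −1.33, and with 1 KO sample neither passed (adjusted p of 0.343 for both). Leaving out the muscle-rich arrays kept only WT 4 and 5 of the WT arrays. In that fit probe 2 in the outer layer was at −1.04 against WT (−0.99 with all arrays) and missed the threshold (limma, adjusted p = 0.198).

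**Figure D2:**
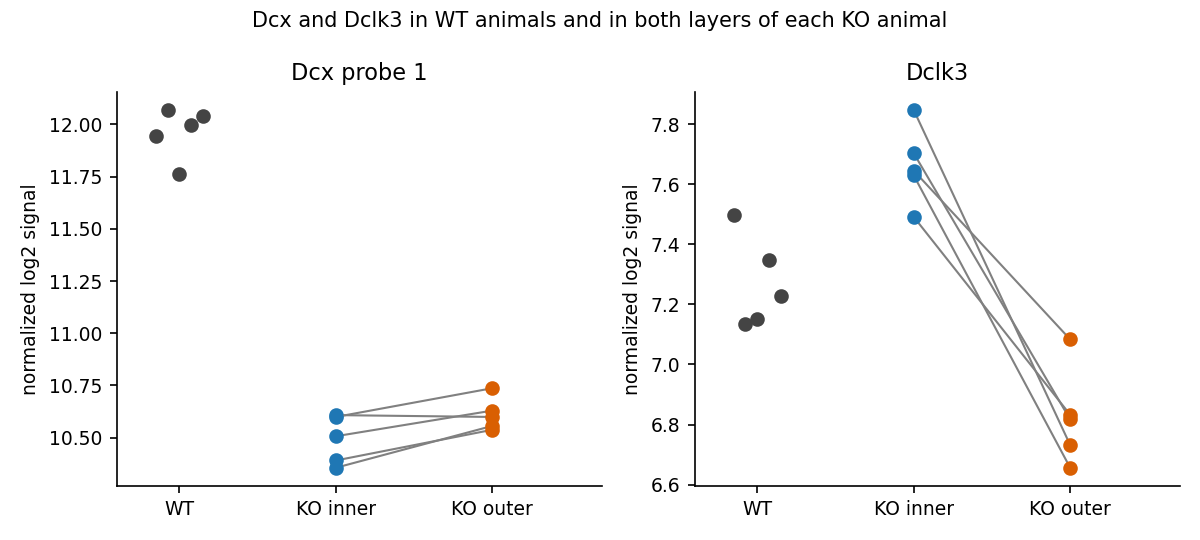
Normalized log2 signal of Dcx probe 1 and Dclk3 in WT and in both layers of each KO animal, with lines joining the layers of 1 animal; the panels have separate axes that do not start at 0. All 10 KO values of Dcx lie at or below 10.74 and all WT values at or above 11.76, and all 5 Dclk3 lines fall from the inner to the outer layer.

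Dclk3 was the family member that parted the KO layers. The inner layer of KO animals 1 to 5 stood at 7.70, 7.49, 7.65, 7.63 and 7.85. The outer layer of the same animals stood at 6.82, 6.83, 7.08, 6.66 and 6.73. The highest outer array was below the lowest inner array. The differences within animals 1 to 5, outer minus inner, were −0.89, −0.66, −0.56, −0.97 and −1.12. The mean difference was −0.84 (95% interval −1.07 to −0.61), a 1.79-fold lower signal in the outer layer (limma with the animal as a block, adjusted p = 0.00193, lower in 5 of 5 animals). It ranked 218 by p among 12077 probes.

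In WT animals 1 to 5, Dclk3 stood at 7.50, 7.14, 7.15, 7.35 and 7.23. WT arrays therefore lay above all 5 outer arrays, while WT array 1 reached just above the lowest inner array. The inner layer exceeded WT by 0.39 (95% interval 0.17 to 0.61, limma, adjusted p = 0.0180), or 1.31-fold. The outer layer was below WT by −0.45 (−0.68 to −0.21, adjusted p = 0.0268), or 1.36-fold. The mean of both KO layers differed from WT by −0.03 (−0.23 to 0.17, adjusted p = 0.841), with 2 of 5 animals below the WT median. The opposite differences of the 2 layers against WT share the WT arrays, and the layer difference itself is the test of their inequality. Each sets a part of KO CA3 against WT CA3 that was not sampled by layer, so that genotype and position cannot be told apart in them.

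The 2 comparisons of Dclk3 with WT rested on more choices than that between the layers. With median scaling the outer layer was at −0.12 (limma, adjusted p = 0.483) and the inner layer at 0.37 (adjusted p = 0.0998). On the authors' scores they were at −0.05 and 0.18 array SD (adjusted p of 0.636 and 0.112). Without the muscle-rich arrays, which leaves inner 3 and 4 and WT 4 and 5, the inner layer was at 0.35 (limma, adjusted p = 0.137). The outer layer against the same WT arrays was at −0.46 (adjusted p = 0.243). With the array set as a term the differences were 0.57 and −0.54, and neither passed (adjusted p of 0.261 and 0.638). The outer layer also missed the threshold when any 1 of WT arrays 1 to 4 or of KO animals 2, 3 or 4 was left out (adjusted p of 0.0530 to 0.0733). The layer difference passed when any 1 animal was left out (adjusted p of at most 0.0119), and it was −0.77 without animal 5, which leaves the shifted arrays only (adjusted p = 0.00813). With median scaling in place of background correction and quantile normalization it was −0.49, lower in 5 of 5 animals, and missed the threshold (adjusted p = 0.144). On the authors' scores it was −0.23 array SD, lower in 4 of 5 animals (adjusted p = 0.0751), with the shift that differs by layer included.

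GABAergic and oligodendrocyte lineage markers also parted the KO layers, while the other marker lists given here overlapped between them. GABAergic markers, 4 of 5 detected, had a mean log2 level of 9.27 to 9.50 on inner, 8.78 to 9.05 on outer and 8.19 to 8.74 on WT arrays. Oligodendrocyte lineage markers, of which Olig1 and Pdgfra were detected while Olig2 and Sox10 were not, had 8.83 to 9.50 on inner, 7.79 to 8.33 on outer and 7.12 to 7.85 on WT arrays. What part the cells of both lists have in the Dclk3 result was not tested. Radial glia and astrocyte markers, 6 of 7 detected, had 8.61 to 9.37 on inner, 8.38 to 8.86 on outer and 8.31 to 8.64 on WT arrays. Neuron markers, 5 of 6 detected, had 9.92 to 10.35 on inner, 9.59 to 10.20 on outer and 9.58 to 9.87 on WT arrays. Red blood cell markers, 4 of 4 detected, had 7.99 to 10.06, 7.63 to 8.17 and 7.02 to 8.47, and bone and cartilage markers, 5 of 6 detected, had 5.46 to 11.08, 5.25 to 7.69 and 5.43 to 10.39. The part of these lists in the Dclk3 result was not tested either. Muscle markers were high on inner arrays 1, 2 and 5 and on no outer array. Animals 3 and 4 had few muscle transcripts in either layer, and there Dclk3 was lower in the outer layer by −0.56 and −0.97 (−0.77 in the limma fit of these 2 animals, adjusted p = 0.0503). Whether muscle content has a part in the Dclk3 result was not tested.

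Dclk1, the kinase most closely related to Dcx by its paired domains, stood at 10.97, 11.10, 11.21, 11.27 and 11.29 in WT animals 1 to 5. The inner layer of KO animals 1 to 5 had 11.01, 10.88, 11.03, 10.81 and 11.04. The outer layer had 10.97, 11.03, 10.79, 10.81 and 11.11. The groups overlapped, but the mean of both layers was below the WT median in 5 of 5 KO animals. The log2 difference between KO animals and WT was −0.22 (95% interval −0.41 to −0.03, limma, unadjusted p = 0.0277, adjusted p = 0.0874), so that a loss of up to 1.33-fold is within the interval. Dclk1 in the layers differed from WT by −0.22 in the inner (adjusted p = 0.102) and −0.23 in the outer (adjusted p = 0.124), and between the layers by −0.01 (−0.20 to 0.18, adjusted p = 0.919). With the array set as a term, Dclk1 in KO animals was at −0.09 ± 0.14 (SE) against WT, an estimate that rests on KO animal 5.

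Dclk2 stood at 10.23, 10.37, 10.29, 10.39 and 10.14 in WT animals 1 to 5. The inner layer of KO animals 1 to 5 had 10.44, 10.20, 10.28, 10.74 and 10.11. The outer layer had 10.35, 10.21, 10.38, 10.55 and 10.55. All 3 groups overlapped, and the inner layer had the widest spread of the 3 (SD of 0.25, against 0.15 in the outer layer and 0.10 in WT). KO animals differed from WT by 0.10 (95% interval −0.11 to 0.31, limma, adjusted p = 0.490), so that the interval allows a gain of up to 1.24-fold. The layers differed by 0.05 (−0.18 to 0.29, adjusted p = 0.739).

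The counts over the family followed from these values. Between KO animals and WT, 2 of the 5 tested probes were called, both of Dcx and both lower, while 22.2% of all tested probes were called. Against WT, 3 of 5 were called in the inner layer (background 28.6%) and 3 of 5 in the outer layer (background 15.5%), each time the Dcx probes and Dclk3. Between the KO layers 1 of 5 was called, Dclk3, against 19.8% of all probes. A share of 1 in 5 lies at the background, and no count here is a result about the family as a whole.

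**Figure D3:**
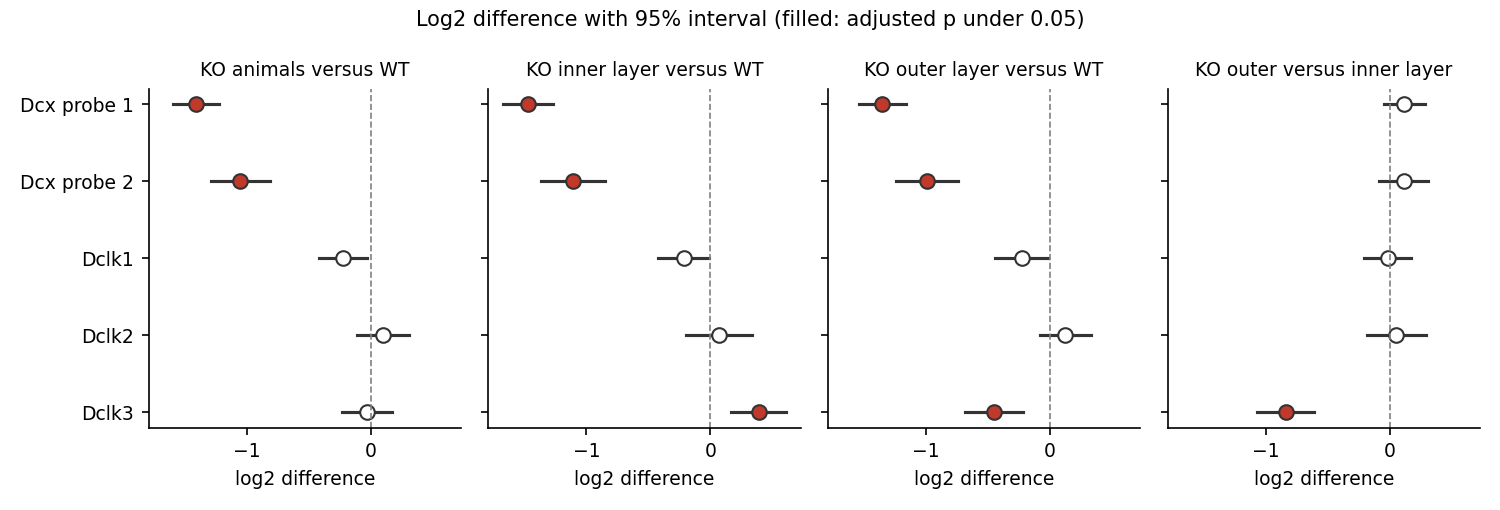
Log2 difference (horizontal axis, first named group minus second) with its 95% interval for the 5 tested probes in 4 comparisons; filled points passed an adjusted p under 0.05. The Dcx probes lie at −0.99 or lower in each comparison with WT, and Dclk3 lies above 0 in the inner layer, below 0 in the outer layer and at −0.84 between the layers.

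Across the 15 arrays the family members did not share 1 pattern. The 2 Dcx probes correlated with Pearson's r of 0.96, and with 0.52 for deviations from the group means. Dcx probe 1 correlated with Dclk1 at 0.64 over all arrays and at −0.31 for the deviations, so that their shared direction lay between the groups and not within them. The correlations among Dclk1, Dclk2 and Dclk3 lay between −0.39 and 0.02. These values are descriptions over 15 arrays from 10 animals, grouped by genotype, layer and array set.

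The genes whose pattern was most like that of a member, 5 for each by Pearson's r over the 15 arrays, were of different kinds. For Dclk3 they were Cdhr1, a cadherin-related gene (r = 0.98), the proline transporter gene Slc6a7 (0.95), the secreted calcium-binding protein gene Smoc1 (0.95), the ERK phosphatase gene Dusp6 (0.95) and Crabp1, whose product binds retinoic acid (0.95), and r of the deviations from group means was still 0.56 to 0.84. Their log2 differences between the layers, −1.07 (Dusp6) to −1.88 (Crabp1), follow from the choice by likeness.

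For Dcx the 5 most alike were Prdm4, Gpat4, Exosc7, Zfp655 and Mob3a (r of 0.88 to 0.92). The deviations of these genes from group means correlated with those of Dcx at −0.73 to 0.50, so that the likeness lay in the step between WT and KO. For Dclk1 they were Herc2, Erlin1, Fahd2a, Ndufv2 and Ldah (0.89 to 0.92, deviations 0.81 to 0.94), and for Dclk2 Thra, Bag6, Marcks, Unc119 and Fam117b (0.83 to 0.91, deviations 0.83 to 0.95).

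Genes that act with doublecortin or on microtubules, and genes of immature neurons, were counted in lists, of which 71 of 87 genes were tested, 1 probe a gene. Of 6 genes for other proteins with doublecortin domains, Dcdc2a and Rp1 were on the array below the detection filter, and none was tested. Of 8442 genes, 11.3% were called higher and 10.9% lower between KO animals and WT. Between the layers 9.54% were called higher and 11.4% lower in the outer one. All differences of list genes are log2 differences from the limma fits above.

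Kinases, phosphatases and scaffolds that act on doublecortin split between KO animals and WT, with 2 of 19 higher, 2 lower and a median of −0.05 (all genes −0.08). Cdk5, the cyclin-dependent kinase that phosphorylates doublecortin, fell by 0.41 (adjusted p = 0.0281), while Cdk5r1, which encodes its activator p35, rose by 0.43 (adjusted p = 0.0214). Mark2, a microtubule affinity-regulating kinase gene, fell by 0.24 (adjusted p = 0.0411). The phosphatase catalytic subunit gene Ppp1cb rose by 0.97 (adjusted p = 0.0272), and Ppp1r9b, which encodes the scaffold spinophilin, was at 0.29 (adjusted p = 0.0845). With the array set as a term the same genes were at −0.22, 0.09, −0.16, 0.27 and −0.01.

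Among binding partners, motors and cargo adaptors, 1 of 16 was higher, the microtubule-depolymerising kinesin gene Kif2a (0.62, adjusted p = 0.0196), and 1 was lower, the clathrin adaptor gene Ap1m1 (−0.34, adjusted p = 0.0303), with a list median of 0.06. With the array set as a term Kif2a was at 0.24 and Ap1m1 at −0.04. Pafah1b1, which encodes the dynein regulator LIS1, was at 0.25 (adjusted p = 0.0767) on the probe tested and at 0.93 on its other probe. Its partner Ndel1 was at −0.22 (adjusted p = 0.0772). The axonal transport motor gene Kif1a, whose product binds doublecortin, was at 0.13 (adjusted p = 0.445).

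Tubulins and other microtubule-associated protein genes had 5 of 17 higher and 1 lower between KO animals and WT, with a median of 0.03. The tubulin-sequestering protein gene Stmn1 was at 1.53 (adjusted p = 0.0242), the plus-end binding protein gene Mapre3 at 1.00 (adjusted p = 0.0248), Map1b at 0.78 (adjusted p = 0.0148), the neuronal tubulin gene Tuba1a at 0.36 (adjusted p = 0.0291) and Map2 at 0.28 (adjusted p = 0.0358). Tubb2a was lower (−0.39, adjusted p = 0.0306) and Tubb3 was at 0.28 (adjusted p = 0.386). The other tested probes of Map1b and Map2 gave smaller differences of both signs. With the array set as a term Stmn1 was at −0.24, Mapre3 at −0.02, Map1b at 0.38, Tuba1a at 0.15, Map2 at 0.16 and Tubb2a at −0.31. With median scaling Stmn1 was at 1.46, Mapre3 at 0.43, Map1b at 0.77, Tuba1a at 0.47, Map2 at 0.30 and Tubb2a at −0.07. Mapre3 and Tubb2a were dim, with mean log2 levels of 4.78 and 5.55 in WT.

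Genes of immature neurons, the cells in which doublecortin is abundant, had 4 of 19 higher and 3 lower between KO animals and WT, with a median of 0.07. The growth cone gene Gap43 was at 1.32, the neuronal RNA-binding protein gene Elavl4 at 1.16 and the transcription factor genes Neurod1 at 1.15 and Neurod2 at 0.75 (adjusted p of 0.0196 to 0.0288). Igfbpl1 (−0.71), the calretinin gene Calb2 (−0.56) and the transcription factor gene Insm1 (−0.48) were lower (adjusted p of 0.0174 to 0.0263). These 3 averages over the KO layers hide a difference between them. In the inner layer Igfbpl1, Calb2 and Insm1 were at −1.45, −1.19 and −1.19 against WT (adjusted p of 9.13e-05 to 0.000943), and in the outer layer at 0.03, 0.07 and 0.22 (adjusted p of 0.149 to 0.824). Neurod1 was at 0.70 in the inner (adjusted p = 0.134) and 1.60 in the outer layer (adjusted p = 0.0209). Elavl4 was at 1.46 in the inner (adjusted p = 0.00832) and 0.85 in the outer layer (adjusted p = 0.0917). With the array set as a term Gap43 was at 0.07, Elavl4 at −0.03, Neurod1 at −0.11, Neurod2 at 0.16, Igfbpl1 at −0.44, Calb2 at −0.56 and Insm1 at −0.52. The other probe of Elavl4 was at −0.21 without the term. With median scaling Gap43 was at 1.32, Elavl4 at 0.79, Neurod1 at 0.61 and Neurod2 at 0.75. Igfbpl1 was at −0.65, Calb2 at −0.53 and Insm1 at −0.29 in that setting. Neurod1 was dim, with a mean log2 level of 5.25 in WT.

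Across the 4 lists, 19 genes were called between KO animals and WT, 15 of them had the same sign with the array set as a term, and 0 passed the threshold with it. In the inner layer against WT, Insm1 was among the 10 probes called with this term, at −1.37 ± 0.14 (SE). Of the 19 differences between KO animals and WT, those of Stmn1, Mapre3, Elavl4 and Neurod1 changed sign with the term. Others shrank, such as that of Gap43, and others, such as those of Calb2 and Insm1, were about as large. Which part the array set has in them was not tested, since it rests on KO animal 5.

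Between the KO layers, 18 list genes were called. The immature neuron list held most of them, with 9 of 19 higher and 2 lower in the outer layer and a median of 0.27 (all genes 0.03). This count is a description only, since the lists were chosen with earlier results of these data known. Its largest differences were Igfbpl1 (1.48), Insm1 (1.41), the small GTPase gene Rnd2 (1.36) and Calb2 (1.26), while Elavl4 (−0.61) and the transcription factor gene Tbr1 (−0.36) were lower (adjusted p of 0.000303 to 0.0454). With median scaling Elavl4 was at −0.31 and Tbr1 at −0.17. Of the 9 higher genes, Igfbpl1, Insm1, Rnd2 and Calb2 were at 1.56, 1.30, 1.42 and 1.37 in that setting. St8sia2, St8sia4 and Neurod1 were at 0.77, 0.57 and 0.51. The dim genes Sox4 and Neurod6 were at 0.21 and 0.15, against 0.56 and 0.47 before. Over all probes, 124 were called between the layers with median scaling, against 2386. Dcx, which marks the same stage in intact tissue, was at 0.12 and not called, and 8 of the 19 list genes were not called either. The Dcx value is the residual signal of the targeted gene, so that it was not read as a stage marker here.

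The other lists had fewer calls between the layers. Among kinases and phosphatases Prkacb (0.33, adjusted p = 0.0207) and Ppp1cc (0.44, adjusted p = 0.0429) were higher in the outer layer, 2 of 19, and none was lower. With median scaling they were at 0.39 and 0.17. Among partners and motors Ap1m1 was higher (0.23, adjusted p = 0.0463) and the kinesin genes Kif1a (−0.38, adjusted p = 0.0216) and Kif5c (−0.28, adjusted p = 0.0416) were lower, 3 of 16 in all. With median scaling these 3 were at 0.38, −0.20 and −0.15. Among microtubule genes Stmn1 (0.66, adjusted p = 0.00974) and the plus-end binding protein gene Mapre1 (0.28, adjusted p = 0.0302) were higher, 2 of 17. With median scaling they were at 0.76 and 0.39.

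**Figure D4:**
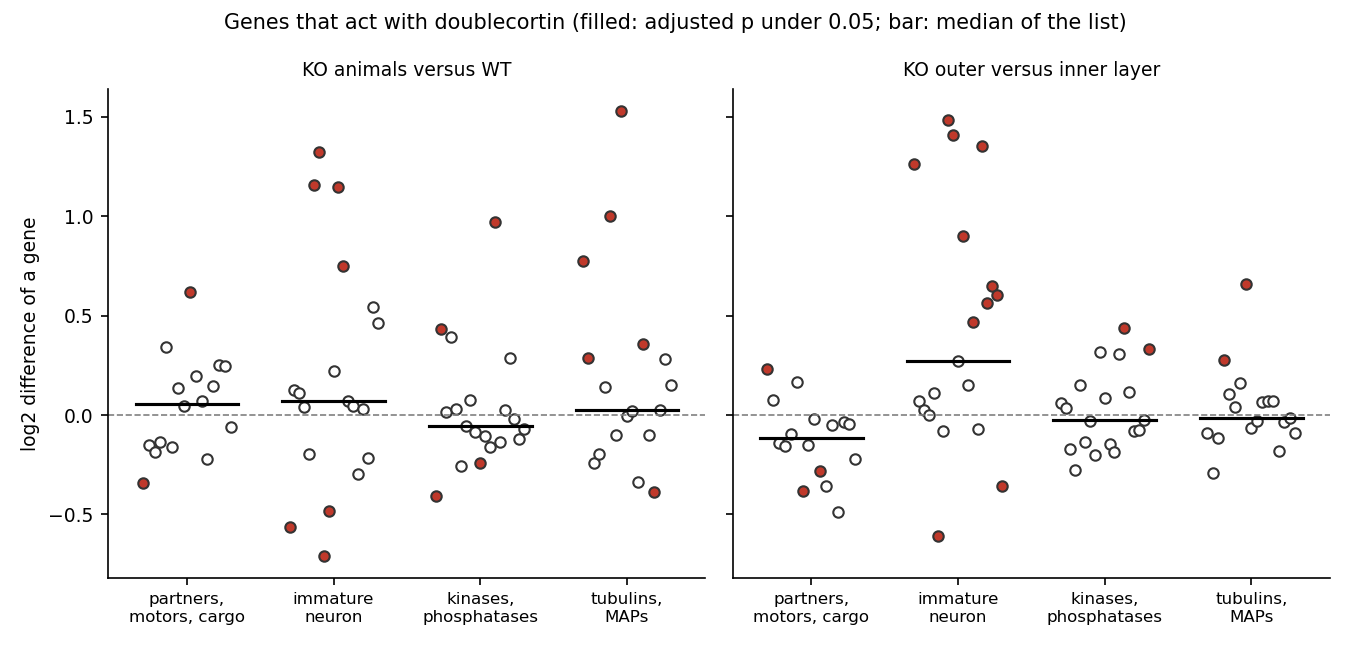
Log2 difference of each tested gene (points) in 4 lists, of which the immature neuron list holds genes of a cell stage and not genes that act with doublecortin. Shown are KO animals against WT and the outer against the inner KO layer, with the list median as a bar. Filled points passed an adjusted p under 0.05. Between the layers 11 of 19 genes of the immature neuron list were called, where 9.54% of all genes were called higher and 11.4% lower. The lists were chosen with earlier results of these data known. The largest difference from WT is Stmn1 at 1.53.

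**Figure D5:**
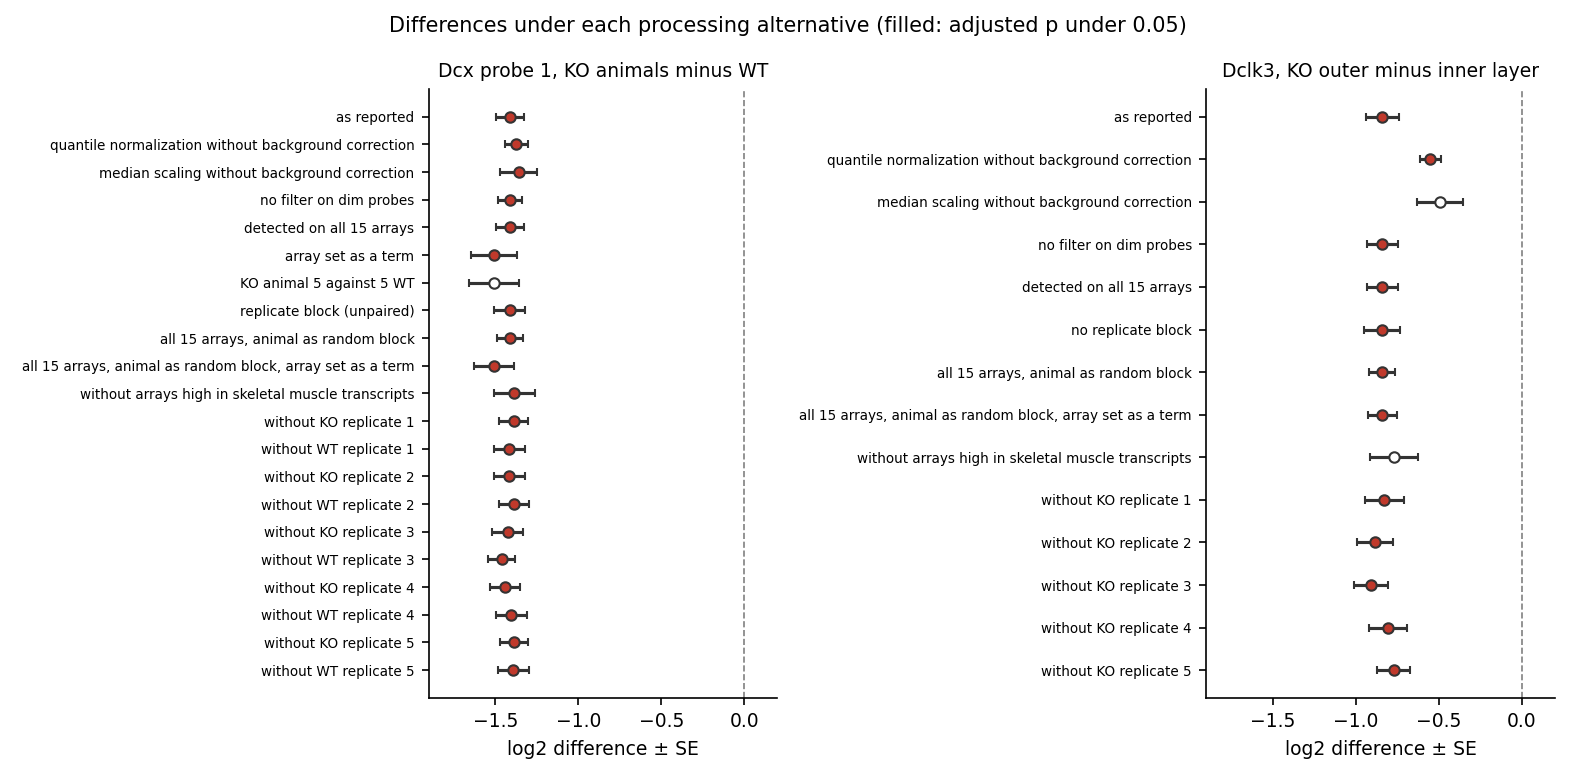
Log2 difference ± SE of Dcx probe 1 (KO animals minus WT) and Dclk3 (outer minus inner layer) as reported and under each processing alternative on the log2 scale; filled points passed an adjusted p under 0.05. Dcx stays between −1.51 and −1.36, and Dclk3 between −0.91 and −0.49, with open points where the test was missed.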

How the data were processed

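The authors deposited log2 signals per probe and array in duplicate tables, equal to 7 decimals for the 25697 probes both hold, and a table of scores. Tested on the values, each score is the log2 signal minus the array's median over its SD, plus a shift on 8 arrays. That shift differs by probe and layer. The submitters' processing notes name limma; bead summary and background treatment are not given in the sources used here. The log2 signals differed in median between arrays (6.49 to 6.98) and were treated as not normalized.

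The neqc function (limma 3.58.1, R 4.3.3, offset 16) then corrected the background on 1114 negative controls and equalised quantiles. The tables hold no detection p-value, so that one was taken from the fraction of the negative controls that reached the level of a probe. Probes under 0.01 on at least 5 arrays were kept (12077, 47%). Models were fitted with lmFit and eBayes, two-sided, p-values were adjusted by Benjamini-Hochberg across the kept probes, with calls at an adjusted p under 0.05, and the scripts were tested on simulated data. The animal was a block between the KO layers, which the series states come from the same animals: the layers of animals 1 to 5 deviated together (r of 0.57, 0.24, 0.37, 0.38 and 0.78 across probes). For KO against WT, both layers of an animal were averaged. The number of arrays limits the precision, and where nothing states separate litters, p-values measure the spread between these animals only.

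The family members and gene lists were chosen with earlier results of these data known. Named are all family probes, the 5 genes most alike to each member, 10 partner genes of interest and per list the up to 4 called genes with the largest difference in each direction. For a gene with several kept probes, the brightest on average stands for it. Alternatives were other scalings, the authors' scores, other filters, the shifted array set as a term, the block, muscle-rich arrays and each replicate left out.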

Additional observations from a re-analysis of the deposited data

Results flagged for a closer look

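Against WT, Dclk3 differed in opposite directions in the 2 KO layers, above WT in the inner and below it in the outer layer. WT CA3 was not sampled by layer, so that genotype and position within CA3 cannot be told apart in these differences. Outer minus inner, the 2 differences from WT were −0.84 apart on the log2 scale (limma with the animal as a block, adjusted p = 0.00193, lower in 5 of 5 animals). Both share the WT arrays, and the test used the KO arrays only. In 18 groups of 5 arrays, 1 for each of 6 probes and 3 groups, 0 arrays stood apart by Dixon's test at the 95% level (critical value 0.71), of which chance would flag about 1 in 20.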

How the results depend on the processing

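Dcx probe 1 was lower in KO animals in all 20 alternatives on the log2 scale (−1.51 to −1.36) and missed the threshold in KO animal 5 alone against 5 WT animals (−1.51, adjusted p = 0.343, a fit in which 1 sample stands for the KO). Dcx probe 3, undetected, gave −0.16 (adjusted p = 0.367). Leaving out 1 replicate gave −1.46 to −1.39. Dclk1 between KO animals and WT lay at −0.42 to −0.09 in 20 alternatives and passed in 2, quantile normalization alone and without KO animal 5. Dclk3 outer against inner passed in 11 of 13 alternatives on the log2 scale. Dclk3 in the inner layer against WT passed in 15 of 20 on that scale, in the outer layer in 7 of 20. The authors' scores are not in these counts, and with them Dclk3 missed in each of these comparisons (limma, adjusted p of 0.0751, 0.112 and 0.636).

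The count of family probes called fell to 0 with KO animal 5 alone in each comparison with WT. For KO animals it was 1, and for the outer layer 1, with the replicate block on numbers that pair no WT and KO samples, and 1 for the outer layer without muscle-rich arrays. Between the layers it was 0 with median scaling, with the authors' scores and without muscle-rich arrays. Leaving out 1 replicate gave 2 to 3 for KO animals and for the outer layer, 3 for the inner layer and 1 between the layers.

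Directions turned for differences near 0, none of which passed. Dclk3 between KO animals and WT was 0.12 with median scaling, 0.0674 with scores and 0.0168 with the array-set term, with KO animal 5 alone and with all 15 arrays and the array-set term (added after seeing the data), and −0.063 to 0.0276 without 1 replicate. Dclk2 in the inner layer was −0.18 with the array-set term and with KO animal 5 alone, and −0.0283 to 0.131 without 1 replicate. Dclk2 in the outer layer was −0.0484 with scores. Between the layers Dclk1 was 0.14 with median scaling (−0.0549 to 0.0441 without 1 replicate) and Dclk2 was −0.11 with scores, −0.0462 without muscle-rich arrays and −0.0427 in KO animals 1 to 4, the fit without animal 5 (−0.0427 to 0.1156 without 1 replicate). The cause was not tested.

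Calls over all probes depended on the settings. For KO animals 2682 were called, and 1257 (1192 higher, 65 lower) with median scaling, 604 (436, 168) with scores, 2 with the array-set term, 3 with it and all 15 arrays, 0 with KO animal 5 alone (431 at an unadjusted p under 0.05), 1 with the replicate block and 21 to 4303 without 1 replicate, the lowest without KO animals 3, 4 (25) and 2 (36). For the inner layer 3448 were called, and, in the same order of settings, 577 (515, 62), 1293 (715, 578), 10, 123, 0 (1227), 2415 and 2257 to 4568, and 1937 without muscle-rich arrays. For the outer layer 1872 were called, and, in the same order, 839 (797, 42), 632 (497, 135), 3, 2, 0 (954), 4 and 4 to 3760, with 963 without a filter and 1 without muscle-rich arrays. Between the layers 2386 were called, and 124 with median scaling, 2063 with scores (1277, 786), 899 with no replicate block, 397 without muscle-rich arrays, 1588 in KO animals 1 to 4 (the fit without animal 5) and 1292 to 1743 without 1 replicate. Median scaling moved the median of all probes from −0.07 to 0.04 for KO animals and from −0.06 to 0.07 for the outer layer.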
